A study of Mus musculus with 24 samples.

Results

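Genes of the machinery that sheds membrane proteins were followed in the main olfactory epithelium (OE) of mice, the nasal lining in which the olfactory sensory neurons (OSNs) sit. They are the 6 members of the iRhom and ADAM sheddase complex, taken by symbol from the 45706 genes in the count table. Rhbdf2 and Rhbdf1 encode iRhom2 and iRhom1, Adam17 encodes the protease that both iRhoms serve, Adam10 encodes its closest relative, Frmd8 encodes a stabiliser of the complex and Timp3 encodes an inhibitor. Bulk RNAseq with poly(A) selection covered 12 WT and 12 iRhom2-/- animals, all untreated, with 3 of each genotype at 5, 8, 10 and 30 weeks of age. The labels give every mouse a mixed strain, and the study names a 129Sv and C57BL/6 mixture for the iRhom2-/- line. At 8 weeks 1 of 3 WT mice and 0 of 3 iRhom2-/- mice were female, at 10 weeks 1 of 3 in each genotype, and the mice of 5 and 30 weeks were all male. The iRhom2-/- mice carry the Rhbdf2 KOMP allele in the whole body, where lacZ replaces part of Rhbdf2 and is transcribed from the Rhbdf2 promoter, and WT mice do not. Columns of the table could be tied to single mice at 8 and 10 weeks. The 12 other columns, 6 per genotype and numbered 7 to 12, carry only a genotype in their names, so they hold the mice of 5 and 30 weeks together and the age of each is not known here. The labels also give these 3 sets of mice different core reference numbers without stating what the number marks, so it cannot be told apart from age, and genotypes were compared within the sets.

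iRhoms are relatives of the rhomboid proteases that lack catalytic activity. They bind immature ADAM17 in the endoplasmic reticulum, carry it toward the Golgi, where proprotein convertases such as furin remove its prodomain, and stay with it at the cell surface. ADAM17 then cuts TNFα, TNF receptors and EGFR ligands from the membrane, FRMD8 keeps the iRhom and ADAM17 complex from being degraded, and TIMP-3 blocks the active enzyme. ADAM10 has its own escorts, the TspanC8 tetraspanins, and does not need iRhoms. The study asked what the loss of iRhom2 does to gene expression in the OE, and the comparisons here address how much Rhbdf2 RNA was left and whether Rhbdf1 RNA differed.

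Between 25333822 and 48660394 counts per library fell on genes (median 34235368 in WT and 34096686 in iRhom2-/-), with the mice of 8 weeks the deepest. Levels are given as counts per 1000000 (CPM) after TMM normalisation, and each of the 6 genes had at least 220 counts in every library and passed the filter on low counts in every set. Fold changes and p-values are from edgeR's quasi-likelihood test, with the Benjamini-Hochberg adjustment over all genes tested and a threshold of 0.1. The tissue expressed its defining markers in all libraries. Omp, the marker of mature OSNs (mOSNs), ranged from 3731 to 8378 CPM, and Cyp2g1, an enzyme of sustentacular cells, ranged from 2388 to 5468 CPM. Because whole tissue was sequenced, fewer cells that express a gene and less RNA per cell cannot be told apart.

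Rhbdf2, the targeted gene (ENSMUSG00000020806, GRCm38 chr11:116598165-116627019, minus strand), was lower in iRhom2-/- OE in each set, and reads on it remained in every iRhom2-/- library. At 8 weeks the 3 WT mice had 20.6, 23.8 and 20.3 CPM (938, 1034 and 831 counts), and the 3 iRhom2-/- mice had 11.0, 13.4 and 12.8 CPM (532, 637 and 565 counts). At 10 weeks the WT mice had 21.1, 20.8 and 21.3 CPM (655, 653 and 718 counts), and the iRhom2-/- mice had 9.58, 10.3 and 7.21 CPM (322, 276 and 232 counts). In the libraries of 5 or 30 weeks the lowest, median and highest values were 19.4, 22.1 and 25.1 CPM in 6 WT libraries and 7.68, 10.1 and 12.4 CPM in 6 iRhom2-/- libraries. The genotypes did not overlap in any set, where 11.8%, 6.57% and 0.644% of all genes were separated in that direction, and the highest iRhom2-/- value of all 12 lay below the lowest WT value.

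**Figure D1:**
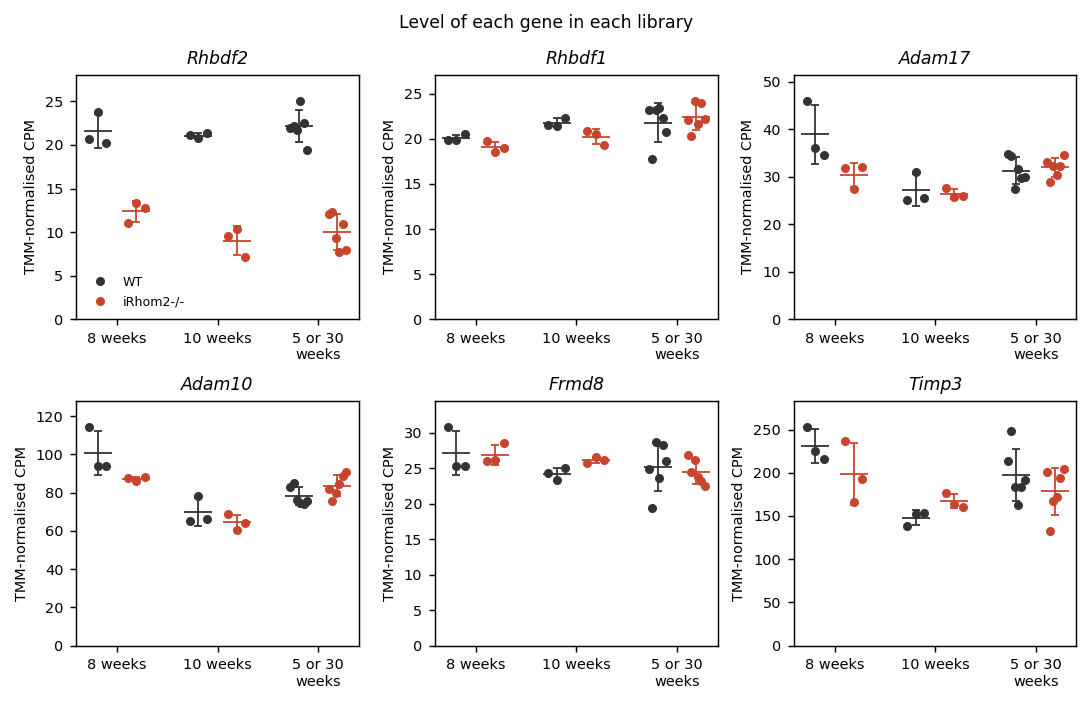
CPM of the 6 genes (y axes, from 0) in each library (points) by age set (x axes), WT in black and iRhom2-/- in red, with the mean and SD of each group (bars). Rhbdf2 separates the genotypes in each set, at 7.21 to 13.4 CPM in 12 iRhom2-/- libraries against 19.4 to 25.1 CPM in 12 WT libraries, and the other 5 genes do not separate them over all sets.

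Over all ages, with the set as a term, Rhbdf2 fell by 1.08 on the log2 scale in iRhom2-/- OE (SE 0.0855, edgeR adjusted p = 9.84e-08), lower in 12 of 12 iRhom2-/- libraries than the WT mean of their set. It had the smallest p of the 20131 genes tested, of which 0.835% fell and 1.29% rose past the threshold. Only 0.0397% of genes tested had every iRhom2-/- library below every WT library in each of the 3 sets, and 0.0482% of genes passed the test of a difference between sets. Within sets the fall was 0.80 at 8 weeks (SE 0.113, edgeR adjusted p = 0.0297), 1.22 at 10 weeks (SE 0.158, edgeR adjusted p = 0.0404) and 1.15 in the libraries of 5 or 30 weeks (SE 0.126, edgeR adjusted p = 0.000801). These calls stand beside 1.74%, 0.112% and 0.422% of genes called lower in the same sets. With 1 mouse left out, the fall at 8 weeks missed the threshold without WT mouse 2 (adjusted p = 0.105), iRhom2-/- mouse 2 (0.111) or iRhom2-/- mouse 3 (0.146), and the fall at 10 weeks missed it without any 1 of the 3 WT mice (0.153 to 0.227), with log2 fold changes between -1.23 and -0.73 in these fits.

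The level of Rhbdf2 left in iRhom2-/- OE was 47.7% of the WT mean over all ages. At 8 weeks the 3 mice kept 51.0%, 62.0% and 59.2% of the WT mean of their age, and at 10 weeks they kept 45.4%, 48.9% and 34.2%. In the 6 libraries of 5 or 30 weeks the residual ran from 34.6% to 55.8%, with a median of 45.6%. All 3 mice of 8 weeks thus lay above all 3 of 10 weeks, but the difference between sets in the effect of genotype did not pass the test of the interaction (p = 0.124, edgeR adjusted p = 0.493). The table counts reads per gene, so which exons of Rhbdf2 hold the residual reads was not tested. The study describes the allele as still transcribing the first exons with the targeting construct, leaving low levels of transcript, and making no functional iRhom2. By in situ hybridisation it found high Rhbdf2 RNA in WT OSNs but not in iRhom2-/- OSNs. That probe covers part of the transcript in sections, so its signal and reads per gene of whole tissue are unlike measures.

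Rhbdf1 (ENSMUSG00000020282, chr11:32209585-32222300, minus strand), the gene of the other iRhom, did not rise past the test in any set. At 8 weeks it stood at 19.9, 19.9 and 20.5 CPM in WT and 19.8, 18.6 and 18.9 CPM in iRhom2-/- mice. At 10 weeks it stood at 21.5, 21.5 and 22.3 CPM in WT and 20.8, 20.6 and 19.3 CPM in iRhom2-/- mice. All 3 iRhom2-/- mice lay below all 3 WT mice at each of these ages, by 0.075 (SE 0.0801) and 0.106 (SE 0.102) on the log2 scale, a separation that, as given for Rhbdf2, 11.8% and 6.57% of all genes showed. The libraries of 5 or 30 weeks overlapped, at 17.8, 22.8 and 23.4 CPM (lowest, median and highest) in WT and 20.3, 22.1 and 24.2 CPM in iRhom2-/- OE. Over all ages the log2 fold change of Rhbdf1 was -0.026 (95% interval -0.12 to 0.071, edgeR adjusted p = 0.888), a fold of 0.982 with an interval from 0.919 to 1.05.

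The 2 iRhom genes can be put on 1 scale as CPM per kilobase of exon, with 5.293 kilobases for Rhbdf2 and 5.433 for Rhbdf1. In WT OE they were close, at 4.11 ± 0.294 for Rhbdf2 and 3.93 ± 0.310 for Rhbdf1 (SD, n = 12), and Rhbdf2 was the higher in 7 of 12 libraries. In iRhom2-/- OE Rhbdf2 was at 1.96 ± 0.391 and Rhbdf1 at 3.87 ± 0.340 (SD, n = 12) CPM per kilobase. Rhbdf1 made up 48.9% ± 2.34 of the summed iRhom RNA in WT and 66.5% ± 5.48 in iRhom2-/- libraries (SD, n = 12), with ranges of 43.9% to 51.0% and 57.5% to 73.3%. The sum of both was 8.04 ± 0.479 CPM per kilobase in WT and 5.83 ± 0.428 in iRhom2-/- libraries (SD, n = 12), and the lowest WT library (7.47) lay above the highest iRhom2-/- library (6.47). Both measures contain the targeted gene and are given with no test. By in situ hybridisation and single-cell RNAseq the study found Rhbdf2 in OSNs, with little Rhbdf1 there. It found Rhbdf1 in other cells such as sustentacular cells, and both genes in some cell types outside the OSNs. The share and the sum therefore describe whole tissue, and whether Rhbdf1 differed within OSNs was not tested.

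**Figure D2:**
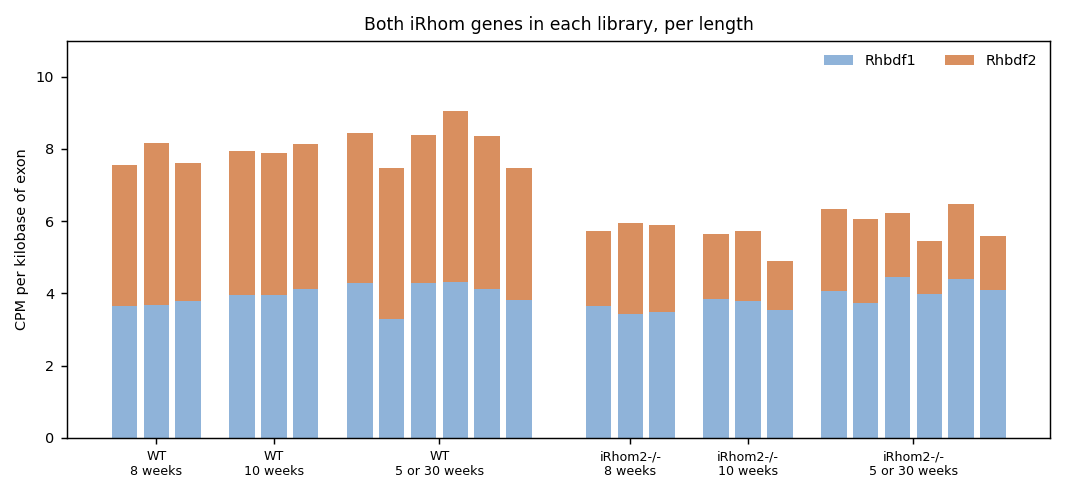
CPM per kilobase of exon (y axis, from 0) of Rhbdf1 (blue) and Rhbdf2 (orange) stacked in each library (1 bar each), grouped by genotype and age set. The blue part is of like height in both genotypes, and the whole bar is at 7.47 to 9.05 in WT and 4.91 to 6.47 in iRhom2-/- libraries.

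To hold the sum at its WT level, Rhbdf1 would have had to be 1.55 times its WT mean over all ages, and 1.47, 1.57 and 1.57 times at 8 weeks, 10 weeks and 5 or 30 weeks. These folds count the residual Rhbdf2 reads as iRhom RNA over the full exon length. The study describes no functional iRhom2 from this allele, and without the residual reads the folds needed would be higher. The upper ends of the 95% intervals of its measured fold were 1.05 over all ages and 1.08, 1.09 and 1.15 in the sets. The mean of Rhbdf1 differed from WT by -0.0621 CPM per kilobase over all ages, beside -2.15 for Rhbdf2.

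Adam17 (ENSMUSG00000052593, chr12:21323509-21373632, minus strand), the protease that needs an iRhom to mature, had a log2 fold change of -0.084 over all ages (95% interval -0.21 to 0.046, edgeR adjusted p = 0.649). Without WT mouse 1 of 8 weeks it was -0.041, and in the mice of 8 and 10 weeks alone -0.20 (edgeR adjusted p = 0.459). At 8 weeks it was at 46.0, 36.1 and 34.6 CPM in WT and 31.8, 27.5 and 32.0 CPM in iRhom2-/- mice, a separation that 11.8% of all genes showed in that direction. The log2 fold change there was -0.36 (SE 0.128, p = 0.0258 before adjustment, edgeR adjusted p = 0.189), and -0.22 without WT mouse 1. DESeq2 put it past the threshold (-0.37, adjusted p = 0.0873). At 10 weeks the values overlapped, at 25.1, 31.1 and 25.5 CPM in WT and 27.6, 25.7 and 26.0 CPM in iRhom2-/- mice. At 5 or 30 weeks they overlapped as well, at 27.5, 30.7 and 34.7 CPM (lowest, median and highest) in WT and 28.9, 32.2 and 34.7 CPM in iRhom2-/- libraries. The difference between sets had p = 0.0440 before adjustment and an edgeR adjusted p of 0.378, which misses the threshold. Adam17 overlaps Iah1 and a small nuclear RNA gene on the other strand, and although the library kit was directional, whether the counting used strand is not stated.

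Adam10 (ENSMUSG00000054693, chr9:70678997-70780229, plus strand), the relative of Adam17 that cuts Notch and amyloid precursor protein, had a log2 fold change of -0.033 over all ages (95% interval -0.14 to 0.073, edgeR adjusted p = 0.863). That value was -0.0028 without WT mouse 1 of 8 weeks and -0.16 in the mice of 8 and 10 weeks alone (edgeR adjusted p = 0.389). At 8 weeks it was at 114, 93.9 and 94.2 CPM in WT and 87.6, 86.0 and 88.2 CPM in iRhom2-/- mice, again separated as 11.8% of all genes were, with a log2 fold change of -0.21 (SE 0.0880, edgeR adjusted p = 0.245) that was -0.11 without WT mouse 1. At 10 weeks it was at 65.0, 78.2 and 66.5 CPM in WT and 68.8, 60.5 and 64.0 CPM in iRhom2-/- mice, and at 5 or 30 weeks at 74.2, 76.1 and 85.3 CPM (lowest, median and highest) in WT and 75.9, 83.3 and 90.8 CPM in iRhom2-/- libraries. Both groups overlapped in these sets. Its difference between sets had p = 0.0479 before adjustment and an edgeR adjusted p of 0.387.

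WT mouse 1 of 8 weeks, which had the highest Adam17 and Adam10 of all 24 libraries, also had the highest summed CPM of the macrophage markers (362, against 181 and 203 in the other WT mice of 8 weeks), of the lymphocyte markers (63.4 against 15.7 and 17.4) and of the neutrophil markers (1852 against 444 and 359). Its fibroblast and vessel markers summed to 9751 CPM, against 4303 and 5448, and its mOSN markers to 9701 CPM, against 11901 and 12032. The part of these cells in the values of Adam17 and Adam10 was not tested.

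Frmd8 (ENSMUSG00000024816, chr19:5849702-5875274, minus strand), the stabiliser of the iRhom and ADAM17 complex, had a log2 fold change of 0.0052 over all ages (95% interval -0.11 to 0.12, edgeR adjusted p = 0.986). It was at 30.8, 25.4 and 25.3 CPM in WT and 26.0, 26.2 and 28.5 CPM in iRhom2-/- mice of 8 weeks, which overlapped. At 10 weeks it was at 24.3, 23.3 and 25.1 CPM in WT and 25.7, 26.6 and 26.2 CPM in iRhom2-/- mice, the latter all above the former, with a log2 fold change of 0.11 (SE 0.0959, edgeR adjusted p = 0.852), a separation that 6.77% of all genes showed in that direction. The libraries of 5 or 30 weeks overlapped, at 19.4, 25.5 and 28.6 CPM in WT and 22.6, 24.1 and 26.9 CPM in iRhom2-/- OE. The antisense gene Frmd8os overlaps Frmd8, and if the counting did not use strand the reads of both cannot be told apart.

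Timp3 (ENSMUSG00000020044, chr10:86300372-86349506, plus strand), the matrix-bound inhibitor of ADAM17, had a log2 fold change of -0.082 over all ages (95% interval -0.25 to 0.083, edgeR adjusted p = 0.749), and of -0.018 in the mice of 8 and 10 weeks alone. At 8 weeks it was at 253, 225 and 216 CPM in WT and 237, 167 and 193 CPM in iRhom2-/- mice, which overlapped (log2 fold change -0.22, SE 0.139, edgeR adjusted p = 0.422). Leaving out 1 mouse moved this value to between -0.38 (without iRhom2-/- mouse 1) and -0.11 (without iRhom2-/- mouse 2). At 10 weeks it was at 138, 153 and 153 CPM in WT and 177, 164 and 160 CPM in iRhom2-/- mice, all 3 higher, as 6.77% of all genes were, with a log2 fold change of 0.17 (SE 0.104, edgeR adjusted p = 0.777). The difference between sets had p = 0.171 and an edgeR adjusted p of 0.539. At 5 or 30 weeks the values overlapped, at 163, 188 and 248 CPM in WT and 133, 183 and 204 CPM in iRhom2-/- libraries. Timp3 overlaps Syn3 on the other strand.

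**Figure D3:**
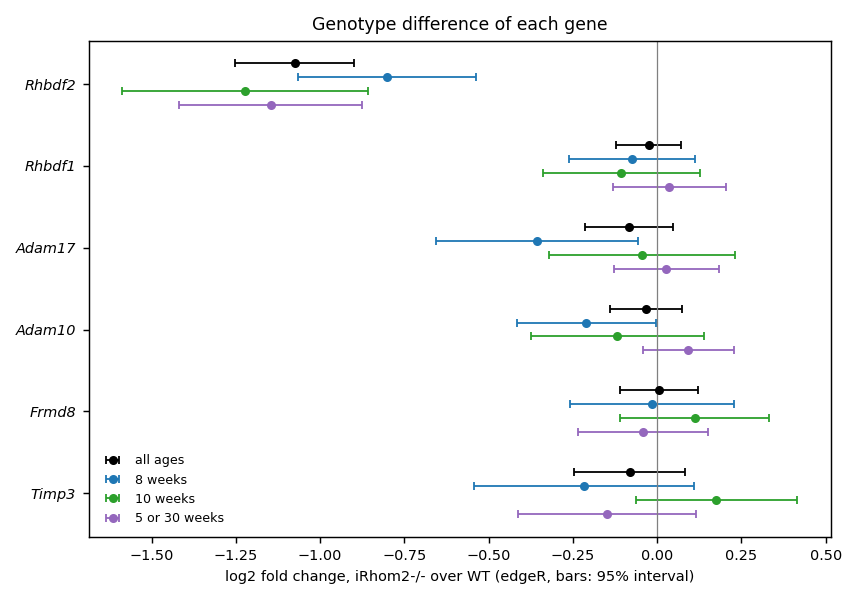
Log2 fold change of iRhom2-/- over WT (x axis) for the 6 genes (y axis) over all ages and in each set, with 95% intervals from edgeR (bars). The 4 intervals of Rhbdf2 end at or below -0.54, and those of the other genes include 0 except for Adam17 and Adam10 at 8 weeks, which do not pass after adjustment.

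Among WT libraries the order of levels per kilobase of exon was Timp3 (23.7 ± 4.66), Adam10 (16.6 ± 2.79), Frmd8 (5.00 ± 0.573), Adam17 (4.50 ± 0.791), Rhbdf2 (4.11 ± 0.294) and Rhbdf1 (3.93 ± 0.310 CPM per kilobase, SD, n = 12). Timp3 was above Adam10 and Adam10 above Frmd8 in 12 of 12 libraries. Frmd8 was above Adam17 in 9 and Adam17 above Rhbdf2 in 7 of 12, so among Frmd8, Adam17, Rhbdf2 and Rhbdf1 no gene differed from the next beyond their spread. In iRhom2-/- libraries Rhbdf2 was the lowest of the 6, and its highest value (2.52) lay below the lowest value of Rhbdf1 (3.42 CPM per kilobase).

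The pattern of each gene over the 24 libraries, once the mean of each set and genotype was removed, was compared with that of 20131 genes by Pearson's r of log2 CPM. The libraries share depth and cell make-up, so r is a description only. Adam17 was most like Sppl2a (r = 0.90), which encodes an intramembrane protease, Msn (0.84) and Adam10 itself (0.84). Adam10 was most like Dock5 (0.88), Tpp2 (0.86) and Nedd4 (0.85). Timp3 was most like Fn1 (0.89), the fibronectin gene, Tnfrsf19 (0.88) and Scin (0.87). Frmd8 was most like Pbxip1 (0.88), Os9 (0.87) and Zfp212 (0.86). For Rhbdf1 the leading genes were Tnks1bp1, Gm3822 and Jdp2 (0.83, 0.83 and 0.82), and for Rhbdf2 they were the odorant receptor gene Olfr566, 2310058D17Rik and Med16 (0.80, 0.78 and 0.78). Between the members, Timp3 had an r of 0.67 with Adam10 and 0.66 with Adam17, and Rhbdf2 had 0.049 with Rhbdf1 and -0.13 with Adam17.

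The wider pathway was described with 10 lists of ligands, substrates, partners and relatives that hold 97 symbols, of which 96 were in the table and 93 were tested. Over all ages 4 rose and 0 fell past the threshold, beside 1.29% higher and 0.835% lower among all genes, and at p under 0.05 before adjustment 11 were higher and 9 lower (6.64% and 5.88% of all genes). The median log2 fold change of the 93 was -0.017, beside 0.0017 for all genes. At 8 weeks 2 rose and 1 fell (3.24% and 1.74% of all genes), at 10 weeks 0 passed edgeR's adjusted threshold, with 2 higher and 2 lower at p under 0.05 before adjustment (3.97% and 3.82% of all genes), and at 5 or 30 weeks 1 rose (0.649% of all genes).

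Of the EGFR ligands, 0 of 6 tested passed, 5 of them had negative values and the median was -0.11 on the log2 scale over all ages. Hbegf, a heparin-binding ligand that ADAM17 sheds, had -0.16 (SE 0.0790), and Egf had -0.34 (SE 0.191). By set Egf had -0.85 at 8 weeks (SE 0.335), 0.33 at 10 weeks (SE 0.393) and -0.41 at 5 or 30 weeks (SE 0.180). Hbegf had -0.11, -0.11 and -0.22 in the same sets. Of the 4 ERBB receptors 0 passed, with -0.099 (SE 0.0900) for Egfr and 0.050 (SE 0.0627) for Erbb2. Ereg and Epgn, also EGFR ligands, were too low to test.

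Substrates of the TNF family and receptors had 0 of 11 past the threshold, 9 of them negative, with a median of -0.17 over all ages. By set the median was -0.52 at 8 weeks, 0.045 at 10 weeks and -0.037 at 5 or 30 weeks. At 8 weeks 9 of 11 were negative and 1 was past the threshold, against 1.74% of all genes called lower. Without WT mouse 1 the median was -0.34. At 10 weeks 5 of 10 and at 5 or 30 weeks 8 of 11 were negative, with 0 past the threshold. Of all genes 50.2%, 48.6% and 50.3% were negative in these sets. At p under 0.05 before adjustment 5 of 11 were lower at 8 weeks (2 without WT mouse 1), against 9.02% of all genes. At 5 or 30 weeks 3 of 11 were lower, against 6.8% of all genes, and at 10 weeks 0 were. The macrophage markers described further on had medians of -0.66, 0.13 and -0.34 in the same sets, and Csf1r is in both lists, and the part of these cells in the values of the substrates was not tested. Tnfrsf1b, which encodes the TNF receptor of immune cells, had -0.53 (SE 0.172, edgeR adjusted p = 0.157), and Tnfrsf1a had -0.11 (SE 0.0556). At 8 weeks Kitl, the membrane-bound ligand of Kit, fell by 0.43 (SE 0.0765, edgeR adjusted p = 0.0517), from 55.6 ± 0.652 to 41.4 ± 3.62 CPM (SD, n = 3). Of 17 adhesion and chemokine substrates 1 rose over all ages. This was Cadm1, a synaptic adhesion molecule, at 181 ± 18.9 CPM in WT and 204 ± 21.4 CPM in iRhom2-/- OE (SD, n = 12; log2 fold change 0.17, SE 0.0423, edgeR adjusted p = 0.0421). Cxcl16, a transmembrane chemokine, had -0.52 (SE 0.154, edgeR adjusted p = 0.112). Ncam1, the neural cell adhesion molecule, rose by 0.31 in the libraries of 5 or 30 weeks (SE 0.0729, edgeR adjusted p = 0.0909), from 218 ± 19.9 to 272 ± 15.2 CPM (SD, n = 6).

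Among the 11 substrates of the Notch and amyloid list, which are mostly cut by ADAM10, 0 passed over all ages. Axl, a receptor tyrosine kinase, had a log2 fold change of -0.22 (SE 0.0727, edgeR adjusted p = 0.153), and App, the amyloid precursor gene, had 0.098 (SE 0.0604). At 8 weeks Prnp, the prion protein gene, rose by 0.39 (SE 0.0912, edgeR adjusted p = 0.0848), a call lost without WT mouse 1 (edgeR adjusted p = 0.139). The TspanC8 escorts of ADAM10 had 0 of 5 past the threshold, with -0.15 (SE 0.108) for Tspan33 and 0.075 (SE 0.103) for Tspan17, and the other TIMP genes 0 of 3, with -0.33 (SE 0.167) for Timp4 and 0.019 (SE 0.0488) for Timp2.

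Of 10 other membrane ADAM genes, Adam19, which encodes another active protease, rose over all ages. It was at 26.1 ± 6.27 CPM in WT and 31.9 ± 6.95 CPM in iRhom2-/- OE (SD, n = 12), a log2 fold change of 0.29 (SE 0.0659, edgeR adjusted p = 0.0231), with 0.23, 0.28 and 0.33 at 8 weeks, 10 weeks and 5 or 30 weeks. Adam22, a catalytically inactive synaptic ADAM, had 0.20 (SE 0.0801) over all ages, and Adam23, inactive as well, rose by 0.42 at 8 weeks (SE 0.0724, edgeR adjusted p = 0.0461). Of 10 rhomboid relatives Rhbdl3 rose over all ages, from 10.8 ± 2.43 to 13.8 ± 2.23 CPM (SD, n = 12; log2 fold change 0.35, SE 0.0975, edgeR adjusted p = 0.0846), and Rhbdl2, an active rhomboid protease, had -0.61 (SE 0.205, edgeR adjusted p = 0.176). Of 16 genes of maturation and trafficking Pacs2, a sorting protein that binds ADAM17, rose by 0.16 (SE 0.0460, edgeR adjusted p = 0.0932), from 157 ± 18.8 to 175 ± 23.3 CPM (SD, n = 12), and Pcsk6, a proprotein convertase, had -0.16 (SE 0.0646). With the mice of 8 and 10 weeks alone 0 of the 93 passed, and Adam19 then had 0.26 (adjusted p = 0.228), Rhbdl3 0.39 (0.147), Cadm1 0.11 (0.566) and Pacs2 0.12 (0.596). Leaving out 1 library at a time ended the call of Pacs2 in 19 of 24 fits, of Rhbdl3 in 16, of Cadm1 in 4 and of Adam19 in 0.

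**Figure D4:**
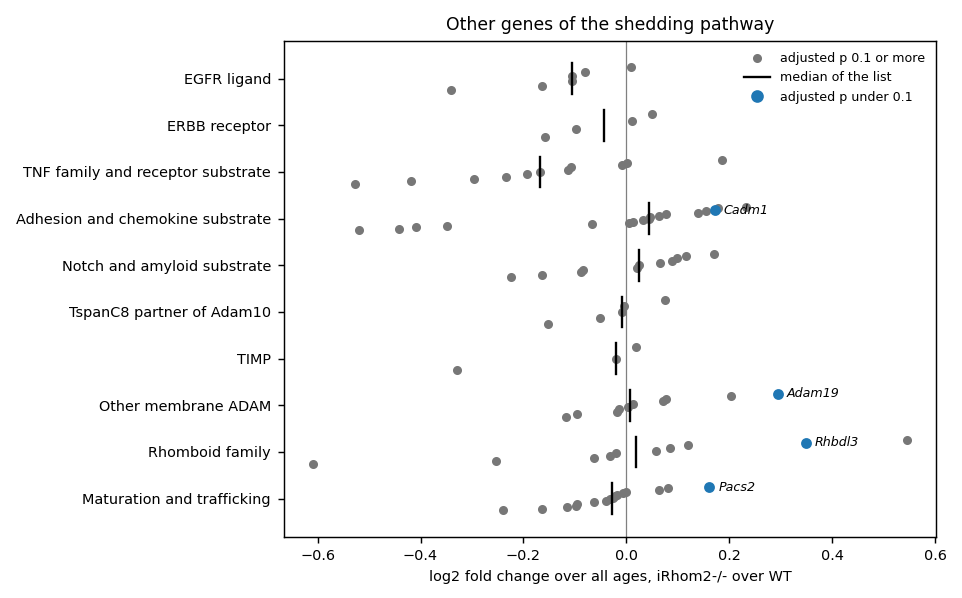
Log2 fold change of iRhom2-/- over WT over all ages (x axis) for each tested gene (points) of 10 pathway lists (y axis), with the median of each list (black line). The 4 genes in blue (Cadm1, Adam19, Rhbdl3 and Pacs2) passed the adjusted threshold of 0.1, all with higher values in iRhom2-/- OE, and the list medians lie between -0.17 and 0.045.

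The neighbourhood of Rhbdf2 was read for RNA differences near the altered allele. Of 93 genes in the table within 1 Mb, 58 were tested over all ages and 0 passed edgeR's adjusted threshold. At p under 0.05 before adjustment 6 were higher and 1 lower, against 6.64% and 5.88% of all genes. DESeq2 put 1 past the threshold, beside 824 of all genes. The values were positive for 42 of the 58, against 50.5% of all genes tested, with a median of 0.053. The nearest genes were Aanat, 485 bases away, which was scarce at 0.370 ± 0.247 CPM in WT and 0.422 ± 0.194 CPM in iRhom2-/- OE (SD, n = 12), and Cygb, 18576 bases away on the other side, at 46.8 ± 9.31 and 44.4 ± 8.82 CPM. At 8 weeks 4 of 57 rose, beside 3.24% of all genes. These were Tmem94 (log2 fold change 0.35), Ube2o (0.30), Jmjd6 (0.32) and Mgat5b (0.47), chosen here after their values were seen, and none of the 4 passed at 10 weeks or in the libraries of 5 or 30 weeks. That count rested on the mice used, with 0 past the threshold without WT mouse 2 or 3 or iRhom2-/- mouse 2 or 3 of 8 weeks.

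**Figure D5:**
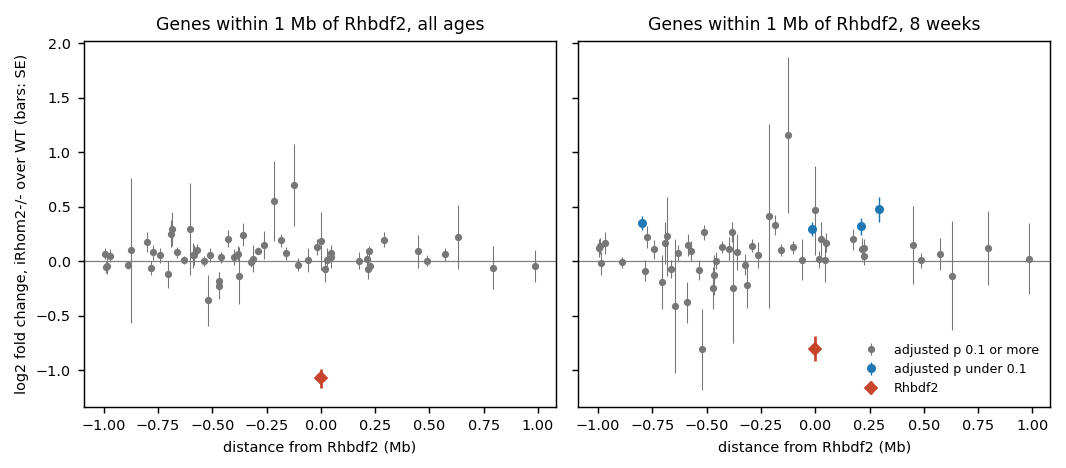
Log2 fold change of iRhom2-/- over WT (y axis, bars are SE) against the distance from Rhbdf2 in Mb (x axis) for tested genes within 1 Mb, over all ages (left) and at 8 weeks (right). Rhbdf2 (red) is at -1.08 and -0.80, while the 4 genes past the threshold at 8 weeks (blue) are at 0.30 to 0.47.

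Markers of other cell types, among them myeloid cells, which are known to express iRhom2, were read beside these results. The 12 macrophage markers all had negative values in iRhom2-/- OE over all ages (median log2 fold change -0.30) with 1 past the threshold, against 0.835% of all genes called lower. This was Aif1 (-0.64, SE 0.173, edgeR adjusted p = 0.0700). The markers summed to 237 ± 48.4 CPM in WT and 198 ± 50.0 CPM in iRhom2-/- OE (SD, n = 12). The call of Aif1 was lost in 9 of 24 fits that left out 1 library (edgeR adjusted p up to 0.132) and in 13 of 33 alternatives in all (adjusted p up to 0.560). By set, all 12 markers were negative at 8 weeks (median -0.66, and -0.30 without WT mouse 1) and at 5 or 30 weeks (median -0.34), and 10 of 12 were positive at 10 weeks (median 0.13, sums of 238 ± 10.8 and 261 ± 48.1 CPM, SD, n = 3), with 0 past the threshold in any set. At p under 0.05 before adjustment 6 of the 12 were lower over all ages, 4 at 8 weeks and 7 at 5 or 30 weeks, against 5.88%, 9.02% and 6.8% of all genes, and 0 were lower at 10 weeks. Their part in the fall of Rhbdf2 was not tested. The most abundant macrophage gene, Csf1r, was at 49.5 ± 11.0 and 43.5 ± 10.1 CPM (SD, n = 12), and each of the 12 was above 3 counts in every library.

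The 10 lymphocyte markers all had negative values over all ages (median -1.10, 0 past edgeR's adjusted threshold and 9 lower at p under 0.05 before adjustment, against 5.88% of all genes), at a summed 9.66, 19.2 and 63.4 CPM (lowest, median and highest) in 12 WT and 5.72, 10.6 and 22.8 CPM in 12 iRhom2-/- libraries. Their most abundant gene was Cd79a, and Cd3e, Cd3d, Nkg7 and Cd8a were at 3 counts or fewer in some libraries. By set their median was -2.13 at 8 weeks (10 of 10 negative, with Cd3d and Cd8a past the threshold, against 1.74% of all genes), 0.051 at 10 weeks (5 of 10 negative, 0 past it) and -1.11 at 5 or 30 weeks (10 of 10 negative, with Cd79b past it, against 0.422% of all genes). The 8-week value rested in part on WT mouse 1, with 63.4 CPM of these markers against 15.7 and 17.4 in the other WT mice. Without it the median was -1.03 and Cd3d missed the threshold (edgeR adjusted p = 0.152). The 8 neutrophil markers had 0 past the threshold over all ages and a median of 0.063, with Ltf the most abundant. Their median was -0.057 at 8 weeks, 0.84 at 10 weeks and -0.17 at 5 or 30 weeks, with 0 past the threshold in each set and 5 of 8 higher at p under 0.05 before adjustment at 10 weeks, against 3.97% of all genes. The part of immune cells in the values of the shedding genes was not tested.

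The 10 mOSN markers had positive values over all ages (median 0.11), with 0 past edgeR's adjusted threshold. At p under 0.05 before adjustment 1 was higher, against 6.64% of all genes. The markers summed to 13025 ± 2551 CPM in WT and 14002 ± 2359 CPM in iRhom2-/- OE (SD, n = 12). At 8 weeks all 10 had positive values (median 0.49). Of these, 3 passed the threshold (Ano2, Cnga2 and Cnga4, against 3.24% of all genes) and 10 were higher at p under 0.05 before adjustment, against 10.8% of all genes. Without WT mouse 1 of 8 weeks the median was 0.38 and Cnga2 missed the threshold (edgeR adjusted p = 0.117). At 10 weeks 9 of the 10 had negative values (median -0.18, 0 past the threshold), and their part in the values of the shedding genes was not tested. Over all ages the log2 fold change of Omp was 0.12 (SE 0.113) and that of Gap43, a marker of immature OSNs, was 0.26 (SE 0.238). The lists of immature OSNs, horizontal and globose basal cells, sustentacular and ciliated cells, ensheathing glia, fibroblasts and vessels, and erythrocytes had 0 past edgeR's adjusted threshold over all ages, with medians of 0.13, 0.012, 0.038, 0.041, 0.0031, -0.092, -0.014 and 0.054. By set, the 7 ensheathing glia markers were all positive at 8 weeks (median 0.32) and all negative at 10 weeks (median -0.51). The 8 markers of immature OSNs had 2 past the threshold at 8 weeks, Tubb3 and Crmp1, against 3.24% of all genes called higher. Their median was 0.12 (0.25 without WT mouse 1), and at 10 weeks it was 0.19 with 0 past the threshold. The 9 fibroblast and vessel markers had medians of -0.17 at 8 weeks (-0.015 without WT mouse 1) and 0.30 at 10 weeks, where all were positive, 0 passed the threshold and 5 were higher at p under 0.05 before adjustment, against 3.97% of all genes. The 5 erythrocyte markers had medians of -0.49 at 8 weeks (-0.24 without WT mouse 1) and 1.16 at 10 weeks, with 0 past the threshold. At 10 weeks they summed to 1239, 1558 and 633 CPM in WT and 735, 6199 and 518 CPM in iRhom2-/- mice. Only iRhom2-/- mouse 2 thus lay above all WT mice of that age, and the positive value there rested on it. Horizontal basal cell markers had medians of -0.25 at 8 weeks (-0.089 without WT mouse 1) and 0.19 at 10 weeks, where 6 of 6 were positive, and globose basal cell markers had -0.20 (-0.027 without that mouse) and 0.24. Ciliated cell markers had -0.13 (-0.23 without that mouse) and 0.46, and sustentacular cell markers 0.15 (0.048 without it) and -0.12. At 8 and 10 weeks 0 markers of these 4 lists passed the threshold. At 10 weeks 2 of 6 horizontal, 2 of 7 globose and 1 of 6 ciliated cell markers were higher at p under 0.05. That p is before adjustment, and 3.97% of all genes were higher in this way. At 8 weeks 2 of 6 horizontal and 1 of 7 globose cell markers were lower by that measure, against 9.02% of all genes. The part of these cells in the values of the shedding genes was not tested. The most abundant genes of the lists were Stmn1, Krt5, Top2a, Cyp2g1, Sec14l3, Fabp7, Col1a1 and Hbb-bs. iRhom2-/- mouse 2 of 10 weeks stood apart with 6199 CPM of erythrocyte markers, against 518 and 735 in the other iRhom2-/- mice of that age, and had the lowest TMM factor of all libraries (0.779). Without it the fall of Rhbdf2 at 10 weeks was 1.34 on the log2 scale.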

How the data were processed

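RNAseq reads of 24 OE libraries were aligned by the authors with STAR to GRCm38 and counted per gene with RSEM in nf-core, so a read that fits several genes is shared by estimate. The deposited table holds these counts as whole numbers, without normalisation, for 45706 genes, each with an Ensembl gene identifier. How they were rounded, and the strand setting, are not given in the sources used here. Its columns of log2 fold change, mean level, likelihood ratio, p-value and FDR hold the authors' own comparison and were not used. All 24 count columns were used (0 left out), 12 tied to 1 mouse by name and 12 to a genotype only.

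Counts were tested in R 4.3.3 with edgeR 4.0.16 (filterByExpr, TMM, quasi-likelihood test, Benjamini-Hochberg adjustment over all genes tested, threshold 0.1), over all ages with the set of libraries as a term, within each set, and for the interaction. p-values measure the spread between mice. For the libraries whose ages are not known here no term for age was fitted, so their spread also holds any difference between ages. The fit over all ages and the test of the interaction include these libraries and share this limit. The part of age in that spread was not tested. The fits were tested on simulated counts, and no result of that test is given here. DESeq2 1.42.0, RLE scaling, other filters, a replicate block, fits on fewer mice, fits without the set or with sex, the likelihood ratio test and fits without each library were alternatives. Lengths and coordinates are from GENCODE for GRCm38, where exon length is the union over transcripts. Likeness used log2 CPM with a prior count of 2. No library was a duplicate: over 42 pairs of the same set and genotype, the smallest chi-square was 12.8 per degree of freedom.

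Genes given by name are the 6 members, pathway genes past the threshold over all ages, the 2 with the smallest p of each pathway list, the nearest neighbours of Rhbdf2 and those past the threshold, the 3 genes most like each member, the most abundant gene of each cell type list, and Omp and Gap43. Those past the threshold at a single set, and Aif1, were named after their values were seen. The members and lists were chosen with earlier results of these data known. Leaving WT mouse 1 of 8 weeks out of the lists was chosen after seeing the data. Calls within the ensheathing glia list by set are not reported here.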

Additional observations from a re-analysis of the deposited data

How the results depend on the processing

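The fall of Rhbdf2 over all ages kept its direction and stayed past the threshold in 33 alternatives (log2 fold change -1.11 to -1.01, adjusted p 8.51e-32 to 0.0483), and in 17 for the libraries of 5 or 30 weeks (-1.21 to -1.08, adjusted p up to 0.00436). The other 5 genes passed in none over all ages, and Rhbdf1 kept its sign there (-0.089 to -0.014). Without each library in turn, Rhbdf2 ranged from -0.87 to -0.73 at 8 weeks, where 3 of 6 fits missed the threshold, and from -1.34 to -1.09 at 10 weeks, where 3 of 6 did. The difference in the share of Rhbdf1 then ran from 17.01 to 18.45 percentage points and that in the summed level from -2.27 to -2.12 CPM per kilobase, which are ranges added after the data were seen.

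Signs near 0 turned. Frmd8 over all ages ran from -0.023 to 0.027 without 1 library and was -0.0030 with at least 10 counts in every library, at 8 weeks it ran from -0.066 to 0.082 and was 0.0038 in 1 fit over all libraries, and at 5 or 30 weeks it ran from -0.10 to 0.00041. Without 1 library Adam17 ran from -0.11 to 0.067 at 10 weeks and from -0.0062 to 0.061 at 5 or 30 weeks, and Rhbdf1 from -0.012 to 0.064 at 5 or 30 weeks.

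The number of pathway genes past the threshold over all ages was 4, against 9 with DESeq2, 2 with no filter on low counts, and 0 in the mice of 8 and 10 weeks alone, with sex as a term there, with a replicate block there and with no term for the set. Without 1 library it ran from 1 (iRhom2-/- mouse 1 of 10 weeks) to 9 (iRhom2-/- mouse 2 of 10 weeks). Of all genes 428 passed over all ages, against 824 with DESeq2, 114 in the mice of 8 and 10 weeks, 68 with sex as a term, 41 with a replicate block, 96 with no term for the set, and 297 to 720 without 1 library. At 8 weeks 962 passed, against 2195 with DESeq2, 404 in 1 fit over all libraries and 68 to 1300 without 1 mouse. At 10 weeks 37 passed, against 289 with DESeq2, 58 with no filter and 13 to 105 without 1 mouse. At 5 or 30 weeks 198 passed, against 916 with DESeq2, 119 with no filter and 52 to 241 without 1 library. The cause of these differences was not tested.

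Whether the replicate numbers of the labels pair the mice cannot be told from so few pairs. The correlation of same-numbered mice was over 0.1 for 3 of 6 pairs, and 3 of 6 mice were most like their own number. A replicate block gave -0.80 for Rhbdf2 at 8 weeks (adjusted p = 0.0278) and -1.24 at 10 weeks (adjusted p = 0.0752). With the block 744 genes rose and 655 fell past the threshold at 8 weeks, against 626 and 336 without it. At 10 weeks 25 rose and 18 fell, against 16 and 21. With 3 mice per genotype the 95% interval of Adam17 at 8 weeks ran from -0.66 to -0.057, and the ages of 12 libraries are not known here.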

Other observations

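The 12 libraries of 5 or 30 weeks, none of which the labels tie to an age, fell apart by the summed level of 8 markers of immature OSNs, such as Stmn1 and Gap43. In WT the sums were 1595, 1669 and 1930 CPM in libraries 7, 8 and 9 and 882, 922 and 977 CPM in libraries 10, 11 and 12. In iRhom2-/- OE they were 899, 921 and 779 CPM in libraries 7, 8 and 9 and 2106, 1819 and 1750 CPM in libraries 10, 11 and 12, so the numbering ran the other way. Markers of fibroblasts and vessels went the same way, at 7066, 6866 and 6928 CPM in WT libraries 7 to 9 and 2647, 2499 and 3048 CPM in WT libraries 10 to 12, against 2193, 1724 and 2542 CPM in iRhom2-/- libraries 7 to 9 and 5838, 7384 and 9811 CPM in iRhom2-/- libraries 10 to 12. No library was grouped by these values.

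Across the same libraries the level of Rhbdf2 was 21.98, 22.2, 21.8, 25.1, 22.6 and 19.4 CPM in WT libraries 7 to 12 and 12.1, 12.4, 9.30, 7.68, 10.9 and 7.95 CPM in iRhom2-/- libraries 7 to 12.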
